A study of Mus musculus with 33 samples.

Results

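Embryoid bodies (EBs) of the Apex1-mutant line were compared with EBs of the Neil1- and Neil2-mutant lines, to describe which changes in gene expression the AP-endonuclease mutant and the glycosylase mutants did not share. The members were chosen by their sample labels, as the 2 Apex1 EB libraries against the 6 Neil EB libraries pooled, all without retinoic acid, over autosomal genes. These 8 libraries are part of a series of 33 RNA-seq libraries, and 3 control EB libraries served as a common reference. All lines derive from E14TG2a, a mouse embryonic stem cell (mESC) line, and were picked as clones after transfection with a Cas9 plasmid, used empty or with guides, and puromycin selection. Control clones #1, #4 and #7 are labelled wild-type. The Neil libraries come from clones #7, #9 and #11 of the Neil1 mutant and #1, #11 and #14 of the Neil2 mutant. The Apex1 mutant is represented by 1 clone, #46, whose 2 libraries are technical duplicates. EBs were grown from mESCs in suspension without leukemia inhibitory factor and harvested on day 8.

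The 3 targeted genes act in base excision repair. NEIL1 and NEIL2 are DNA glycosylases that remove oxidized bases and can cut the strand at the resulting abasic site, whereas APEX1 is the main AP-endonuclease, which cuts the strand at abasic sites left by other glycosylases and also has a separate redox function on transcription factors. EBs are aggregates of pluripotent cells that form derivatives of the germ layers. In them, an outer layer of visceral endoderm rests on a basement membrane of laminin and type IV collagen, and mesoderm passes through a state like that of the primitive streak, marked by the T-box genes T and Eomes.

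The guide pairs used to delete part of each gene are shown because they set which bases of each transcript were lost. Each was found once by exact match to the chromosome of its target gene in NCBIM37, and the other chromosomes were not searched. Capitals mark the PAM, the bases next to the guide that Cas9 requires.
Apex1 guide 1: tgcccgctaaaagtctcttaTGG
Apex1 guide 2: aagatccggtccaaggctctTGG
Neil1 guide 1: gggaggaacaggtttgtaagTGG
Neil1 guide 2: gatgtcaggatccttccagcTGG
Neil2 guide 1: gctgtgtggttaaggctgagGGG
Neil2 guide 2: gctgtgaagaatgtctgaaaAGG
The Apex1 guides lie on the plus strand at chr14:51546001-51546023 and chr14:51546586-51546608, both in coding exons. The expected cuts enclose 585 bases, from 51546018 to 51546602, with 483 of the 1422 exon bases of Apex1 (ENSMUSG00000035960, chr14:51544643-51546814). The Neil1 guides match the minus strand at chr9:56995164-56995186, where the cut lies outside exons, and at chr9:56994580-56994602, where it is coding in 1 of the 2 transcripts. They enclose 584 bases with 279 of the 1688 exon bases of Neil1 (ENSMUSG00000032298). The Neil2 guides match the minus strand at chr14:63810931-63810953 and chr14:63810344-63810366, both in introns, and enclose 587 bases with 154 of the 1932 exon bases of Neil2 (ENSMUSG00000035121). Counts summed over a gene therefore do not check any of these deletions.

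Levels are given as CPM, counts scaled to the TMM-normalized library size. Apex1 was at 14.7, 14.2 and 11.8 CPM in the control EBs, at 4.84 to 15.4 CPM with a median of 13.7 CPM in the Neil EBs, and at 56.2 and 80.5 CPM in the Apex1 EBs. The gene whose deletion the label names was thus 5.54 times higher than in the Neil EBs (log2 fold change 2.47 ± 0.28 SE, adjusted p = 0.00012). Whole-gene counts do not check the deletion. For this line the paper reports a smaller genotyping PCR product and a Western blot for APEX1. As the libraries were chosen by label, they are called Apex1-labelled from here on. In mESCs the mean was 72.8 CPM in the Apex1-labelled libraries and 11.1 CPM in the controls. Exons of the neighbouring genes Osgep and Tmem55b lie close to Apex1, and whether reads were counted by strand is not given in the sources used here. The origin of these counts was not tested. Neil1 was at 1.32 to 7.02 CPM in the Neil EBs, 5.48, 8.62 and 8.12 CPM in the controls and 10.7 and 11.1 CPM in the Apex1-labelled EBs (log2 fold change 1.21 ± 0.41, adjusted p = 0.056, or 0.23 with the duplicates summed). Neil2 did not pass the test between Apex1-labelled and Neil EBs (log2 fold change 0.45 ± 0.30, adjusted p = 0.31).

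The 11 EB libraries held 21758303 to 48350904 counts on genes, the Apex1-labelled pair 25992707 and 28597214. In a principal component analysis, controls and Neil clones separated on the component with 39.7% of the variance, the Apex1-labelled pair stood apart on that with 20%, and Neil2 clone #1 on that with 14.7%. No library pair of a group agreed within counting noise (chi-squared per degree of freedom 9.63 to 109), including the Apex1-labelled duplicates at 12.3. Mixl1, a gene of the first mesoderm and endoderm, was at 61.5 to 101 CPM in control EBs against a mean of 0.934 CPM in mESCs. Because both Apex1-labelled libraries come from 1 clone, clone and genotype cannot be told apart in them, and p-values in which they count as 2 samples rest partly on technical spread. Counts obtained with the duplicates summed to 1 library are therefore given beside those that include this pair.

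A gene was called where its adjusted p was below 0.1 and its absolute log2 fold change above 0.5. Of 15677 autosomal genes tested, 1450 were higher in Apex1-labelled than in Neil EBs (9.25%) and 1511 were lower (9.64%), against 703 (4.34%) and 590 (3.65%) of 16186 with the duplicates summed. Without Neil2 clone #1, 1996 genes were higher and 1755 lower. Against the controls, the Apex1-labelled EBs had 1344 genes higher (8.57%) and 1570 lower (10.0%), or 630 (3.89%) and 684 (4.23%) with the duplicates summed. The Neil EBs had 1570 genes higher (10.0%) and 1644 lower (10.5%) than the controls. Between Neil1 and Neil2 EBs, 0 genes were called by edgeR's quasi-likelihood test, and 1509 had an unadjusted p below 0.05. The difference between Apex1-labelled and Neil EBs could arise from a departure of either from the controls. Of the 1450 genes that were higher, the control mean lay nearer to the Apex1-labelled mean for 688 and nearer to the Neil mean for 762. Of the 1511 that were lower, it lay nearer to the Apex1-labelled mean for 607 and nearer to the Neil mean for 904.

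**Figure D1:**
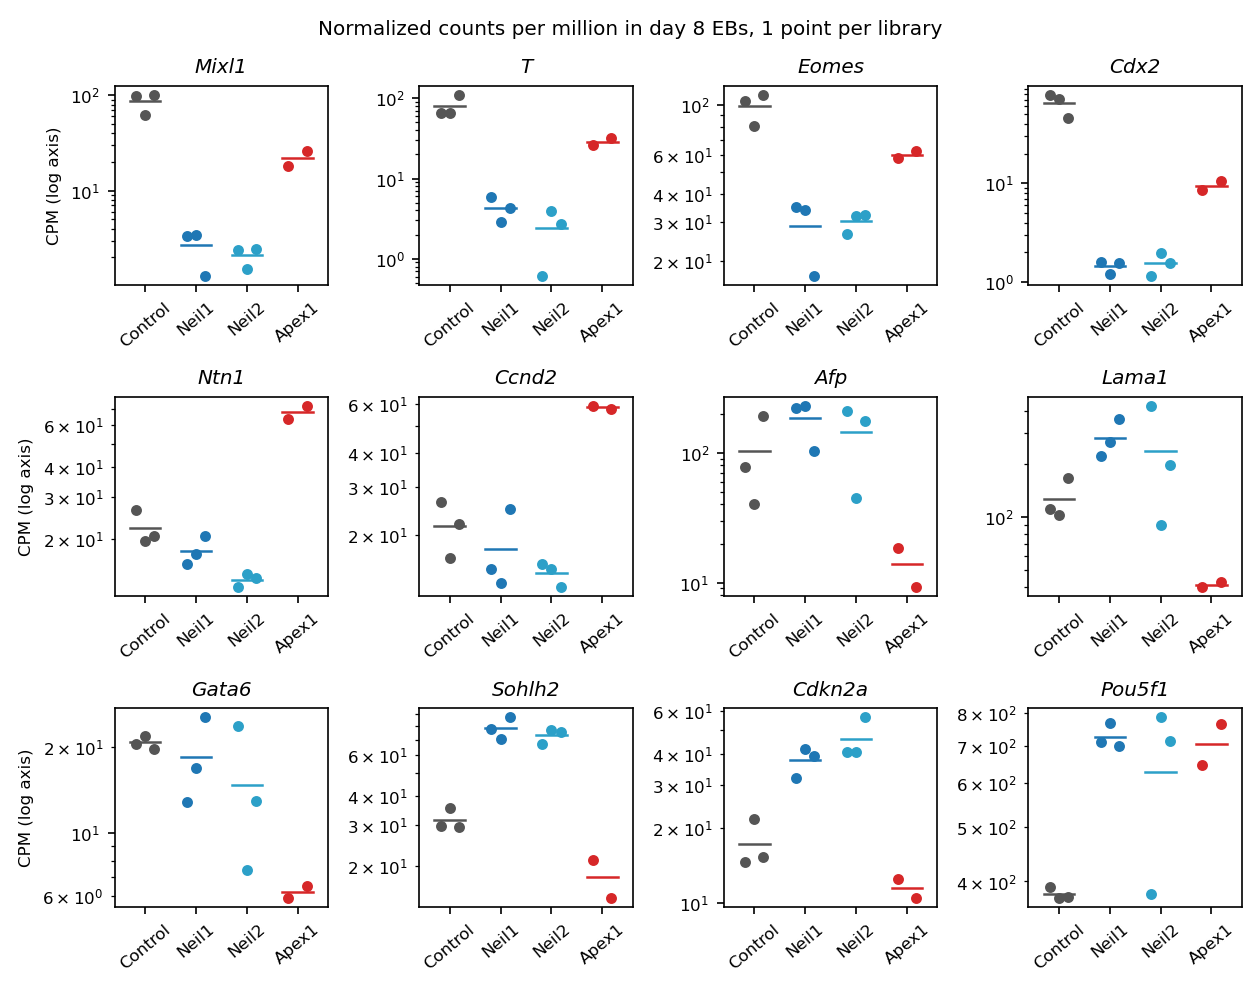
Levels of 12 genes in the 11 EB libraries, in CPM on a log axis, with 1 point per library in the control, Neil1, Neil2 and Apex1-labelled groups and a line at each group's mean. Mixl1, T, Eomes and Cdx2 are lowest in the Neil clones, Afp, Lama1 and Gata6 in the Apex1-labelled pair, and Sohlh2 and Cdkn2a are highest in the Neil clones.

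Genes of the primitive streak and early mesoderm were below the controls in both mutants, and the Neil EBs were the lower of the pair. Of 22 such genes tested, 13 were higher and 3 lower in Apex1-labelled than in Neil EBs, with a median log2 fold change of 0.95 against −0.01 over all genes. With the duplicates summed, 8 were higher and 1 lower. In their own comparisons with the controls, 17 of the 22 were lower in the Neil EBs and 16 in the Apex1-labelled EBs (12 with the duplicates summed), with medians of −2.48 and −1.93. The summed level of the list was 651.1 to 726.7 CPM in the controls, 115.4 to 203.7 CPM in the Neil EBs and 204.4 to 238.2 CPM in the Apex1-labelled EBs. In bulk EBs, fewer cells of a type and less RNA per cell cannot be told apart.

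Over all genes tested, both Apex1-labelled libraries lay above all 6 Neil libraries for 17.7% and below all 6 for 15.2%. T, the Brachyury gene of the streak and nascent mesoderm, was at 65.7, 66.4 and 109.7 CPM in the controls, at 0.608 to 5.83 CPM with a median of 3.4 CPM in the Neil EBs, and at 26 and 31.7 CPM in the Apex1-labelled EBs. The 3 groups did not overlap, and T was 8.68 times higher in the Apex1-labelled than in the Neil EBs (log2 fold change 3.12 ± 0.42, adjusted p = 0.00038, or 0.0054 with the duplicates summed). Its difference between Apex1-labelled EBs and controls was −1.48 (adjusted p = 0.063). Mixl1, a homeobox gene of mesendoderm, had the same order, at 97.5, 61.5 and 101 CPM in the controls, 1.27 to 3.42 CPM in the Neil EBs and 18 and 26 CPM in the Apex1-labelled EBs. It was 9.24 times higher in the latter than in the Neil EBs (log2 fold change 3.21 ± 0.28, adjusted p = 2.3e-05, or 0.00032 summed) and 1.98 lower on the log2 scale than in the controls (adjusted p = 0.0022). Eomes, the T-box gene of mesoderm and definitive endoderm, differed less, at 104, 80.9 and 111 CPM in the controls, 17.2 to 34.9 CPM in the Neil EBs and 57.8 and 62 CPM in the Apex1-labelled EBs (2.04 times higher, adjusted p = 0.0041, or 0.048 summed). Cdx2, a caudal homeobox gene of posterior mesoderm and also of trophoblast, was at 45.8 to 78 CPM in the controls, 1.16 to 1.96 CPM in the Neil EBs and 8.54 and 10.5 CPM in the Apex1-labelled EBs. For its relative Cdx1 the Apex1-labelled EBs were close to the controls, at 4.63 and 4.13 CPM against 4.24 to 6.6 CPM, while the Neil EBs were at 0.636 to 1.08 CPM. The 3 genes of the list that were lower in the Apex1-labelled EBs, Pdgfra, Gata4 and Snai1, are also used by primitive and parietal endoderm. Pdgfra was at 5.39 and 6.12 CPM there and at 8.84 to 29.3 CPM in the Neil EBs (log2 fold change −1.82 ± 0.40, adjusted p = 0.0072), and Gata4 and Snai1 were not called with the duplicates summed (adjusted p = 0.12 and 0.15).

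The Hox genes, whose clusters are switched on in order along the body axis, were the list with the highest median difference of the 30 lists. Of 36 Hox genes tested, 18 were higher in Apex1-labelled than in Neil EBs, 13 with the duplicates summed, and the median log2 fold change was 1.43. In the Neil EBs 32 of the 36 were below the controls, with a median of −3.02, and in the Apex1-labelled EBs 25 were (10 with the duplicates summed), with a median of −1.93. Hoxa9 was at 15, 11.8 and 5.74 CPM in the controls, at 0.0474 to 0.395 CPM in the Neil EBs and at 1.97 and 3.67 CPM in the Apex1-labelled EBs (log2 fold change 3.98 ± 0.47, adjusted p = 0.00016). Hoxd10 was at 7.64, 6.1 and 2.11 CPM in the controls, at 0 to 0.247 CPM in the Neil EBs and at 1.44 and 3.06 CPM in the Apex1-labelled EBs. Hoxc8 was listed at a median of 0 CPM in the Neil EBs and at 0.607 and 0.783 CPM in the Apex1-labelled EBs, so that its values rest on few counts. Both Apex1-labelled libraries lay above all Neil libraries for each of these 3 genes, as they did for 17.7% of all genes tested.

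Genes of the mesenchymal matrix had the same order of groups. Of 19 tested, 11 were higher in Apex1-labelled than in Neil EBs, 8 with the duplicates summed, and the others did not pass the test. In the Neil EBs 17 were below the controls, and in the Apex1-labelled EBs 13 (8 summed). Tnc, which encodes the matrix glycoprotein tenascin C, was at 16.5, 17.4 and 9.3 CPM in the controls, at 0.0304 to 0.12 CPM in the Neil EBs and at 1.44 and 3.03 CPM in the Apex1-labelled EBs. This was 30 times higher than in the Neil EBs (log2 fold change 4.91 ± 0.43, adjusted p = 2.2e-05) and 2.68 lower on the log2 scale than in the controls. Col1a1, a chain of type I collagen, was at 168, 185 and 91.5 CPM in the controls, at 0.919 to 4.32 CPM in the Neil EBs and at 15.2 and 19.7 CPM in the Apex1-labelled EBs, 9.42 times higher than in the Neil EBs (adjusted p = 0.00029). Pmp22, a membrane protein gene of myelinating and mesenchymal cells, was at 132 to 183 CPM in the controls, 2.54 to 4.87 CPM in the Neil EBs and 14.6 and 20.2 CPM in the Apex1-labelled EBs (log2 fold change between the mutants 2.40 ± 0.20, adjusted p = 1.5e-05). In these genes the Apex1-labelled pair lay between the controls and the Neil clones, nearer to the latter on the CPM scale.

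Wnt and BMP signals pattern the streak, and ligands of both families differed between the mutants. Of 26 genes of the Wnt list, 13 were higher and 1 lower in the Apex1-labelled EBs (7 and 1 with the duplicates summed), with a median of 0.70. Wnt5a, a ligand of the noncanonical pathway, was at 104, 81 and 49.8 CPM in the controls, 0.699 to 2.33 CPM in the Neil EBs and 7.1 and 11.6 CPM in the Apex1-labelled EBs (log2 fold change 2.69 ± 0.32, adjusted p = 0.00016). The R-spondin Rspo3 and Sp5, a target of Wnt signalling, were higher by 2.07 and 1.96 on the log2 scale. Wnt7b went the other way. It was at 13.9, 21 and 15.8 CPM in the controls, at 17.1 to 65.6 CPM with a median of 52.2 CPM in the Neil EBs and at 15.7 and 8.3 CPM in the Apex1-labelled EBs, so that it was raised in the Neil EBs (log2 fold change 1.47, adjusted p = 0.0079) and was 3.91 times lower in the Apex1-labelled than in the Neil EBs (adjusted p = 0.0074). That last call was lost without the second Apex1-labelled library (log2 fold change −1.57). Of 19 genes of the BMP list, 8 were higher and 2 lower (6 higher when summed), and the median was 0.10. Bmp7, a ligand of many epithelia, was lowered in the Neil EBs, with 18.7, 19.5 and 18.8 CPM in the controls, 4.7 to 12 CPM in the Neil EBs and 21.6 and 19.5 CPM in the Apex1-labelled EBs. Its log2 fold change was 1.66 ± 0.28 between the mutants (adjusted p = 0.0016) and 0.11 ± 0.33 between Apex1-labelled EBs and controls (adjusted p = 0.86). Msx1, a BMP target of mesoderm and neural crest, was below the controls in both, at 61.2 to 115 CPM in the controls, 2.4 to 3.79 CPM in the Neil EBs and 9.64 and 10 CPM in the Apex1-labelled EBs.

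Among later mesoderm, 5 of 23 endothelial genes were higher and 2 lower in Apex1-labelled EBs (3 and 1 when summed, 6 and 4 without Neil2 clone #1). The median was −0.06, and over all genes 9.25% were higher and 9.64% lower. The 2 lower genes were Sox7 (log2 fold change −1.62) and Esam (−1.17), of which Esam lost its call when summed. Kdr, the VEGF receptor of blood vessel precursors, was at 28.9 to 40.3 CPM in the controls, 0.978 to 1.6 CPM in the Neil EBs and 2.81 and 4.63 CPM in the Apex1-labelled EBs (log2 fold change 1.65 ± 0.23, adjusted p = 0.00042). Aplnr, the apelin receptor of early mesoderm, was at 9.13 to 13.1 CPM in the controls, 0 to 0.122 CPM in the Neil EBs and 1.1 and 1.74 CPM in the Apex1-labelled EBs. The cardiac and striated muscle list went both ways. Of 22 tested, 5 were higher, among them the transcription factor genes Isl1 (log2 fold change 1.82 ± 0.28, adjusted p = 0.00085) and Hand2 (3.40 ± 0.69, adjusted p = 0.0048). Another 6 were lower, among them Nppb (−1.98) and Myl3 (−1.70), and the median of the list was −0.485. The calls of all 6 and of 2 of the 5 were lost with the duplicates summed, and that of Hand2 without the second Apex1-labelled library (2.75).

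**Figure D2:**
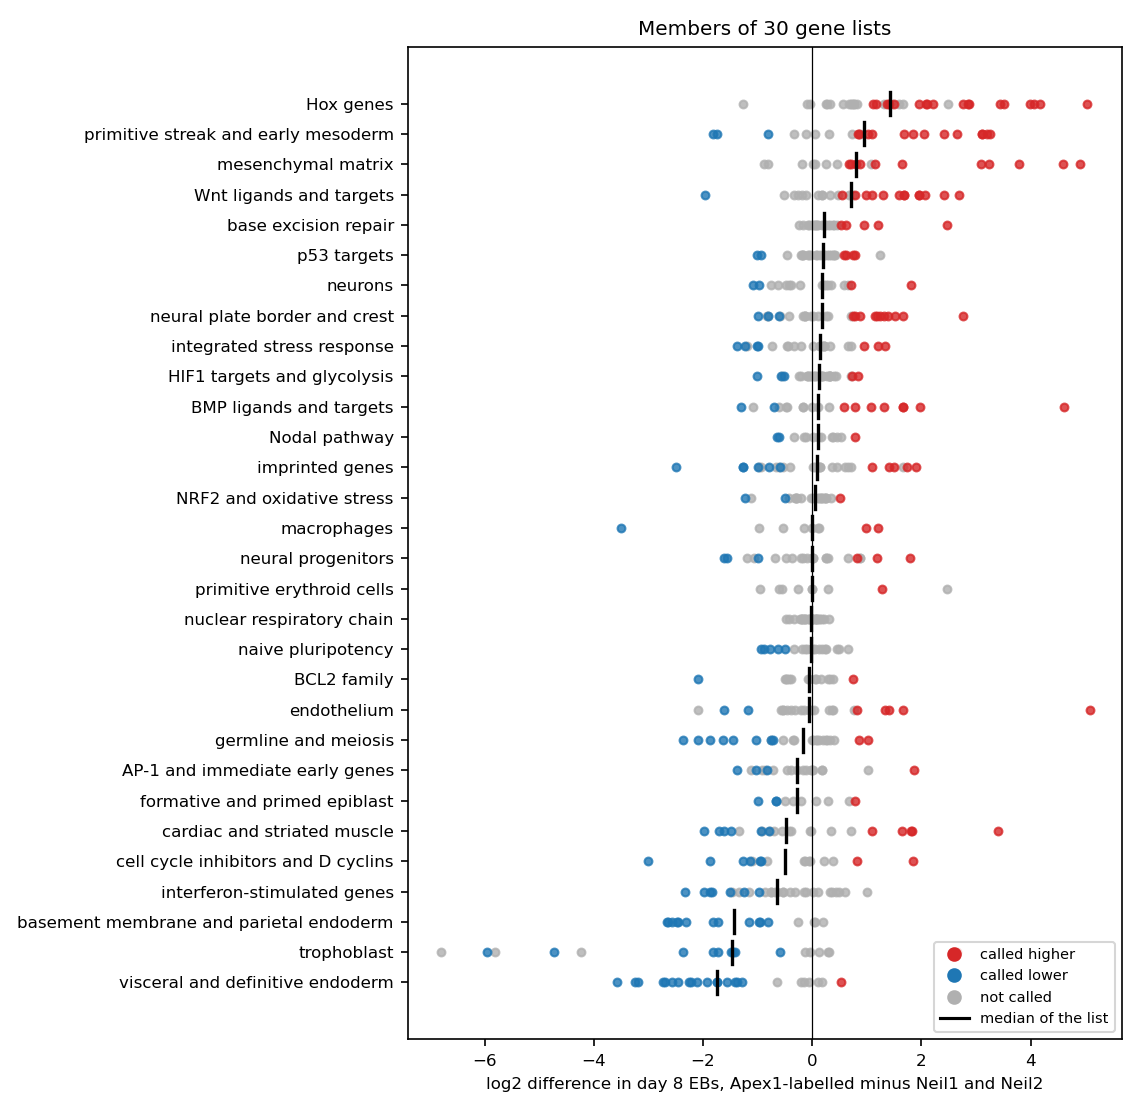
Log2 fold change of Apex1-labelled over Neil EBs for every tested member of 30 gene lists, 1 point per gene, red where called higher, blue where called lower and grey where not called, with a black bar at the median. The Hox, streak and matrix lists lie mostly to the right of 0, and the endoderm, basement membrane and trophoblast lists mostly to the left.

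Endoderm genes were lower in the Apex1-labelled EBs than in either the controls or the Neil EBs. Of 24 genes of visceral and definitive endoderm tested, 17 were lower and 1 higher in Apex1-labelled than in Neil EBs, with a median log2 fold change of −1.74. With the duplicates summed, 9 were lower, and without Neil2 clone #1, 16 were. Against the controls, 18 of the 24 were lower in the Apex1-labelled EBs (10 summed), with a median of −1.90, and 2 in the Neil EBs, with a median of −0.04. The summed level of the list was 1262 to 1851 CPM in the controls and 704.1 to 713.9 CPM in the Apex1-labelled EBs. The Neil clones spread widely, from 813.7 to 3069 CPM, so that the lowest Neil clone lay close to the Apex1-labelled pair. Per library, the median log2 difference of the list from the controls was −2.02 in the lower of the Apex1-labelled libraries, −1.25 in Neil2 clone #11 and −0.25 to 0.80 in the other 5 Neil clones.

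Afp, the alpha-fetoprotein that visceral endoderm secretes, was at 77.6, 40.2 and 191.6 CPM in the controls, at 45 to 230.0 CPM with a median of 194 CPM in the Neil EBs, and at 18.4 and 9.22 CPM in the Apex1-labelled EBs. It was 11.9 times lower than in the Neil EBs (log2 fold change −3.58 ± 0.74, adjusted p = 0.0053, or 0.06 with the duplicates summed) and 2.90 lower on the log2 scale than in the controls (adjusted p = 0.018). The call was lost without the second Apex1-labelled library, when the value was −3.16. Apoa1, an apolipoprotein gene of the same cells, was at 12.9 to 30.8 CPM in the controls, 11 to 49.3 CPM in the Neil EBs and 4.86 and 2.42 CPM in the Apex1-labelled EBs (9.12 times lower, adjusted p = 0.0037, or 0.043 summed). Cubn, which encodes the endocytic receptor cubilin of visceral endoderm, was at 78.8 to 171 CPM in the controls, 53.1 to 295 CPM in the Neil EBs and 24.9 and 19.9 CPM in the Apex1-labelled EBs (6.66 times lower, adjusted p = 0.0049, or 0.063 summed). For these 3 genes both Apex1-labelled libraries were below every control and every Neil library. They lay below every Neil library for 15.2% of all genes tested. Gata6, the zinc finger factor of primitive endoderm, was at 19.8 to 22 CPM in the controls, 7.4 to 25.5 CPM in the Neil EBs and 5.92 and 6.55 CPM in the Apex1-labelled EBs, but its call (log2 fold change −1.41 ± 0.38, adjusted p = 0.02) was lost with the duplicates summed (adjusted p = 0.14) and without either Apex1-labelled library (−1.34 and −1.48). The gene of the list that was higher, Cxcr4, lost its call when the duplicates were summed.

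The genes of the basement membrane and of parietal endoderm, the cell type that secretes the thickest such membrane, were lower with them. Of 16 tested, 12 were lower in Apex1-labelled than in Neil EBs, 10 with the duplicates summed, with a median of −1.44. Against the controls, 10 were lower and 1 higher in the Apex1-labelled EBs (5 and 1 when summed), and 1 was lower and 3 higher in the Neil EBs. Lama1, the laminin chain of embryonic basement membranes, was at 110, 103 and 166 CPM in the controls, 90.4 to 425 CPM with a median of 242 CPM in the Neil EBs and 40 and 42.8 CPM in the Apex1-labelled EBs (log2 fold change −2.65 ± 0.48, adjusted p = 0.0026, or 0.043 summed). Col4a2, a chain of type IV collagen, was at 209 to 263 CPM in the controls, 116 to 536 CPM in the Neil EBs and 45.5 and 52.8 CPM in the Apex1-labelled EBs (5.96 times lower, adjusted p = 0.0017). Thbd, the thrombomodulin gene of parietal endoderm, was raised in the Neil EBs and lowered in the Apex1-labelled EBs. It was at 0.933 to 1.46 CPM in the controls, at 2.52 to 3.84 CPM in the Neil EBs and at 0.569 and 0.498 CPM in the Apex1-labelled EBs, with log2 fold changes against the controls of 1.39 (adjusted p = 0.00082) and −1.10 (adjusted p = 0.038).

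Simple epithelial keratins and other genes of the trophoblast list were lowest in the Apex1-labelled EBs, but several were below the controls in the Neil EBs as well. Of 18 tested, 9 were lower in Apex1-labelled than in Neil EBs and 1, Cdx2, was higher (6 and 1 when summed). In the Apex1-labelled EBs 9 were below the controls (8 when summed), and in the Neil EBs 6 were below and 2 above. Krt8, a keratin of every simple epithelium including visceral endoderm, was at 683, 1054 and 816 CPM in the controls, 151 to 406 CPM in the Neil EBs and 68.8 and 85.1 CPM in the Apex1-labelled EBs. It fell by 3.47 on the log2 scale in the Apex1-labelled EBs (adjusted p = 9.9e-05) and by 1.64 in the Neil EBs (adjusted p = 0.00016), and the mutants differed by −1.82 ± 0.31 (adjusted p = 0.0016, or 0.032 summed). Krt7 was at 23.7 to 53 CPM, 18.2 to 46.8 CPM and 6.07 and 3.81 CPM in the same order of groups. The prolactin-family genes Prl3d1 and Prl7d1, whose near relatives make their counts uncertain, were not called with the duplicates summed. Anxa1, the gene of the phospholipid-binding protein annexin A1, was among the genes that fell most, from 22.5 to 49.8 CPM in the controls to 9.18 to 29.9 CPM in the Neil EBs and 2.35 and 1.82 CPM in the Apex1-labelled EBs (log2 fold change between the mutants −3.20 ± 0.45, adjusted p = 0.00047).

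**Figure D3:**
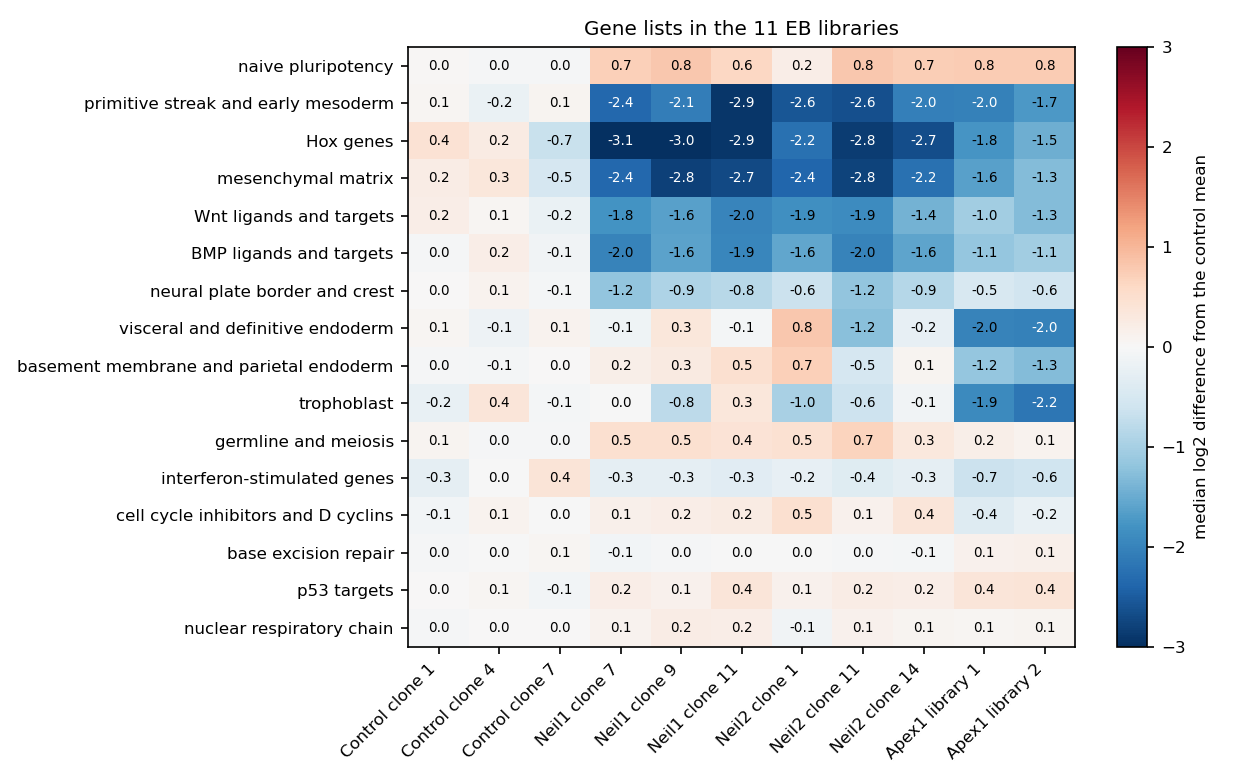
Median log2 difference from the mean of the 3 control EB libraries for 16 gene lists (rows) in each of the 11 EB libraries (columns), red above and blue below the controls. The Neil clones are lowest for the Hox, streak and matrix lists, and the Apex1-labelled pair for the endoderm, basement membrane and trophoblast lists.

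A further set of genes was above the controls in the Neil EBs and at or below them in the Apex1-labelled EBs. Of 24 germline and meiosis genes tested, 8 were lower and 2 higher in Apex1-labelled than in Neil EBs (6 and 1 when summed), and without Neil2 clone #1, 8 were lower and 4 higher. In the Neil EBs 11 of the 24 were above the controls and 1 below, and in the Apex1-labelled EBs 2 were above and 2 below (2 and 1 when summed). Sohlh2, a helix-loop-helix factor of early germ cells, was at 29.8, 35.6 and 29.4 CPM in the controls, 67.3 to 87.6 CPM in the Neil EBs and 21.1 and 14.5 CPM in the Apex1-labelled EBs. The groups did not overlap, and over all genes tested both Apex1-labelled libraries lay below all Neil libraries for 15.2%. Against the controls, Sohlh2 had log2 fold changes of 1.27 in the Neil EBs (adjusted p = 1.5e-05) and −0.83 in the Apex1-labelled EBs (adjusted p = 0.0054). Between the mutants its value was −2.09 ± 0.16 (adjusted p = 9.6e-06). Hormad1, which encodes a protein of the meiotic chromosome axis, was at 8.16 to 12.8 CPM in the controls, 18.7 to 73.9 CPM in the Neil EBs and 6.68 and 8.26 CPM in the Apex1-labelled EBs. Dazl, the RNA-binding protein gene of germ cells, was at 15.4 to 20.5 CPM, 25.1 to 49.6 CPM and 11.8 and 12.1 CPM in the same order. Tdrd1, a Tudor gene of the piRNA pathway, was an exception, at 2.49 to 3 CPM in the controls, 3.11 to 4.23 CPM in the Neil EBs and 6.64 and 6.23 CPM in the Apex1-labelled EBs (log2 fold change 0.86 ± 0.18, adjusted p = 0.006, or 0.068 summed).

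Genes with the largest falls over the whole genome held others with this pattern. Tuba3a, an alpha-tubulin gene of the testis with a near-identical copy, Tuba3b, that could share its reads, was at 28.5, 30.8 and 30.6 CPM in the controls, 91.6 to 121 CPM in the Neil EBs and 14.3 and 10.2 CPM in the Apex1-labelled EBs. Its difference between the mutants was −3.11 ± 0.16 (adjusted p = 2.2e-07, or 1.5e-05 with the duplicates summed). Smc1b, the meiotic cohesin subunit, was at 9.98 to 21.3 CPM in the controls, 34.1 to 57.7 CPM in the Neil EBs and 5.43 and 4.99 CPM in the Apex1-labelled EBs, 7.58 times lower than in the Neil EBs (adjusted p = 8.3e-05). Aurkc, the Aurora kinase of meiosis, was at 3.95 to 8.02 CPM, 13 to 24.8 CPM and 2.28 and 1.85 CPM in the same order. Pramel6, a member of a multigene family expressed in the early embryo, was at 1.96 to 2.23 CPM, 4.93 to 13.9 CPM and 0.759 and 0.498 CPM, 14.8 times lower in the Apex1-labelled than in the Neil EBs. Cdkn2a, the locus of the cell cycle inhibitors p16 and p19, behaved likewise, at 14.7 to 21.9 CPM in the controls, 31.9 to 56.5 CPM in the Neil EBs and 12.4 and 10.4 CPM in the Apex1-labelled EBs (log2 fold change −1.88 ± 0.22, adjusted p = 0.00016, or 0.0054 summed). Gadd45g, a stress-inducible regulator of growth arrest, was 8.02 times lower in the Apex1-labelled than in the Neil EBs, at 2.92 and 2.99 CPM against 17.9 to 27.9 CPM, with the controls at 7.67 to 19.7 CPM. Over the 16 genes of the list of cell cycle inhibitors and D cyclins, 6 were lower and 2 higher (4 and 1 when summed). Over all genes, 9.64% were lower and 9.25% higher. Relative to the controls, 4 of the 16 were higher and 0 lower in the Neil EBs. In the Apex1-labelled EBs 4 were higher and 5 lower (2 and 1 when summed).

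Some genes were higher in the Apex1-labelled EBs than in both other groups. Ntn1, which encodes the axon guidance protein netrin-1, was at 26.5, 19.7 and 20.6 CPM in the controls, 12.6 to 20.5 CPM in the Neil EBs and 63.7 and 72.1 CPM in the Apex1-labelled EBs (log2 fold change 2.11 ± 0.16 from the Neil EBs, adjusted p = 8.1e-06, and 1.61 from the controls, adjusted p = 0.00023). Ccnd2, the gene of cyclin D2, was at 16.5 to 26.5 CPM in the controls, 12.9 to 25 CPM in the Neil EBs and 59.1 and 57.8 CPM in the Apex1-labelled EBs (1.85 ± 0.21, adjusted p = 0.00012). Pnma2, a paraneoplastic antigen gene, was at 1.46 to 2.94 CPM, 2.57 to 3.43 CPM and 11.7 and 11.9 CPM in the same order. The kinase gene Cdk6, a partner of the D cyclins, was lowered in the Neil EBs, where it was at 2.76 to 5.63 CPM, and was at 15.3 and 15.8 CPM in the Apex1-labelled EBs against 7.84 to 10.8 CPM in the controls (difference from the controls 0.82, adjusted p = 0.061). Trim67 and Alox15 were lowered in the Neil EBs while their difference between Apex1-labelled EBs and controls did not pass the test (0.39, adjusted p = 0.43, and −0.67, adjusted p = 0.22). Alox15, a lipoxygenase gene, was at 18.9 to 44.2 CPM in the controls, 1.88 to 3.42 CPM in the Neil EBs and 16.6 and 17.7 CPM in the Apex1-labelled EBs.

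Pluripotency genes were above the controls in both mutants. Of 19 naive pluripotency genes tested, 15 were above the controls in the Neil EBs, with a median of 0.65, and 11 were above and 1 below in the Apex1-labelled EBs (8 and 1 when summed), with a median of 0.77. Between the mutants 5 were lower in the Apex1-labelled EBs (3 when summed), and the median was −0.03. Pou5f1, which encodes OCT4, was at 391, 374 and 375 CPM in the controls, at 380 to 788 CPM with a median of 712 CPM in the Neil EBs and at 645 and 764 CPM in the Apex1-labelled EBs (difference between the mutants 0.06 ± 0.20, adjusted p = 0.88). Klf4, a factor of the naive network, was raised in the Neil EBs (log2 fold change 0.65, adjusted p = 0.00076), at 53.8 to 69.1 CPM against 36.4 to 44.6 CPM in the controls and 35.8 and 29.6 CPM in the Apex1-labelled EBs. Its difference between the mutants was −0.93 ± 0.13 (adjusted p = 0.00046, or 0.011 summed).

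The neural lists showed less of a difference. Of 28 neural plate border and neural crest genes tested, 11 were higher and 3 lower in Apex1-labelled than in Neil EBs, but only 4 kept a call with the duplicates summed, all higher, and the median was 0.18. In the Neil EBs 15 of the 28 were below the controls and 4 above, and in the Apex1-labelled EBs 10 were below and 2 above (6 below when summed). Pax3, a paired-box gene of the neural crest, was low in both mutants, at 0.734 to 1.31 CPM in the controls, 0.08 to 0.426 CPM in the Neil EBs and 0.304 and 0.178 CPM in the Apex1-labelled EBs. The mutants differed by 0.25 ± 0.64 (adjusted p = 0.83), an error too wide to tell them apart or to call them alike. Pax6, the paired-box gene of neuroectoderm, was above the controls in both, at 0.615 to 1.02 CPM in the controls, 2.29 to 7.28 CPM in the Neil EBs and 6.03 and 7.09 CPM in the Apex1-labelled EBs (difference between the mutants 0.88 ± 0.36, adjusted p = 0.11). Whether Pax6 passed depended on the fit, since it was called in 6 of 22 alternatives, namely with DESeq2, with Neil1 and Neil2 as 2 groups, with Neil2 clones only, with the replicate block, without Neil2 clone #1 and without Neil1 clone #11, the Neil library with the highest level. Among neural progenitor genes 3 of 23 were higher and 3 lower, and among neuronal genes 2 of 17 were higher and 2 lower, shares close to the 9.25% and 9.64% over all genes. With the duplicates summed, 1 gene of each list was called, and without Neil2 clone #1, 5 neural progenitor genes were higher and 3 lower, and 4 neuronal genes were higher and 3 lower.

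The base excision repair list was searched for other members that set the lines apart. Of 24 genes tested, 5 were higher in Apex1-labelled than in Neil EBs, 3 with the duplicates summed, against 9.25% and 4.34% of all genes. Of the 5, Apex1 and Neil1 were targeted genes, so only the rest are other members, at a share near that of all genes. Among these were Smug1, which lost its call when summed, and Tdp1. Tdp1, which removes adducts from DNA ends, was at 47.7 to 54.3 CPM in the controls, 47.2 to 51.8 CPM in the Neil EBs and 95.1 and 95.5 CPM in the Apex1-labelled EBs (log2 fold change 0.95 ± 0.09, adjusted p = 2.7e-05). It lies on chromosome 12, whose median was raised by 0.274 and 0.312 in these libraries. Targets of p53, which responds to DNA damage, showed 4 of 27 genes higher and 2 lower (3 and 1 when summed), close to the 9.25% and 9.64% of all genes. Against the controls, 8 of the 27 were higher and 0 lower in the Apex1-labelled EBs (5 and 0 when summed). In the Neil EBs 3 were higher and 1 lower. Over all genes, 8.57% and 10.0% were higher than the controls in these groups. The median log2 fold changes of the list were 0.37, also with the duplicates summed, and 0.24. Pmaip1, which encodes the cell death inducer NOXA, was at 54 to 59.3 CPM in the controls, 42.6 to 60.9 CPM in the Neil EBs and 79.4 and 94.8 CPM in the Apex1-labelled EBs (log2 fold change 0.75 ± 0.13, adjusted p = 0.0016), and Plk3, a stress-responsive kinase gene, was higher in the Neil EBs, at 31.5 to 45 CPM against 16.5 to 22.2 CPM in the controls and 22.6 and 18.3 CPM in the Apex1-labelled EBs. Of 29 interferon-stimulated genes 7 were lower (3 when summed), but the count rested on the libraries used, since without Neil2 clone #1, 12 were lower and 2 higher. Among them was Zbp1, a sensor of nucleic acids, at 2.26 to 5.53 CPM in the controls, 2.16 to 4.52 CPM in the Neil EBs and 0.835 and 0.498 CPM in the Apex1-labelled EBs.

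The same comparison in mESCs, the starting point of the EBs, called 2396 genes higher (15.1%) and 2302 lower (14.5%) of 15882 tested in Apex1-labelled than in Neil mESCs, or 1388 (8.52%) and 1190 (7.30%) with the duplicates summed. The mESC library of Neil1 clone #11 stood apart with 0.944% of its counts on chromosome X, against 3.23% to 4.58% in the other mESC libraries and 4.39% in the EB library of the same clone. Calls are counted over autosomes, and without that library 4792 genes were called in mESCs. Of the 1450 genes higher in EBs, 542 (37.4%) were also higher in mESCs and 52 were lower there. Of the 1511 lower in EBs, 503 (33.3%) were also lower in mESCs and 139 higher. These shared genes were 22.6% and 21.9% of the mESC calls. Whether the difference between the mutants itself changed from mESCs to EBs was tested by an interaction over 22 libraries. It called 1441 genes in the direction of a higher value in EBs (8.76%) and 1398 in that of a lower (8.50%), of 16455 tested, but 84 (0.498%) and 113 (0.670%) with the duplicates summed.

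The endoderm and basement membrane lists were not lowered as lists in mESCs. In mESCs, 5 of 20 endoderm genes tested were higher and 3 lower in the Apex1-labelled libraries (3 and 1 when summed). The median was 0.06, and over all genes 15.1% were higher and 14.5% lower. The interaction was called for 9 of 24 endoderm genes, all towards lower in EBs (2 when summed). For the basement membrane list it was called for 11 of 16 in that direction (2 when summed), with 3 higher and 2 lower in mESCs (1 higher when summed). Foxa2, a forkhead factor of endoderm named here after its values were seen, reversed between stages, with a log2 fold change of 2.30 in mESCs, where means were 1.41 CPM in the Apex1-labelled and 0.29 CPM in the Neil libraries, and −1.56 in EBs (interaction −3.85 ± 0.59, adjusted p = 0.00081, or 0.043 summed). Lama1 was already well expressed in mESCs, with means of 110 CPM in the Apex1-labelled and 117 CPM in the Neil libraries (difference −0.09 ± 0.25, adjusted p = 0.81).

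The Hox list differed between the mutants in EBs. In mESCs 4 of its 23 genes tested were higher and 4 lower (2 and 2 when summed), shares near the 15.1% and 14.5% of all genes. By the interaction, 13 of 36 had a larger difference in EBs (5 when summed). The streak list was already higher in Apex1-labelled mESCs for 9 of 19 genes tested (3 when summed), at low levels. T had means of 2.27 CPM in the Apex1-labelled and 0.442 CPM in the Neil mESCs (log2 fold change 2.37 ± 0.38, adjusted p = 0.0011), and its interaction did not pass the test (0.75 ± 0.73, adjusted p = 0.54). Mixl1 did not differ beyond its error in mESCs (0.11 ± 0.31), and its interaction was 3.10 ± 0.46 (adjusted p = 0.00077, or 0.032 summed). The germline and meiosis list went both ways in mESCs. Of its 24 genes, 4 were higher and 6 lower (3 and 5 when summed), against 15.1% and 14.5% of all genes. The median was −0.03. Its member Sohlh2 had a value of −0.94 ± 0.15 in mESCs and −2.09 in EBs. Outside the list, 3 genes named for their large falls in EBs were also lower in Apex1-labelled than in Neil mESCs. These were Tuba3a at −2.01 ± 0.21, Aurkc at −2.52 ± 0.25 and Smc1b at −2.33 ± 0.23. Cdkn2a was lower in both stages, by −1.62 ± 0.28 in mESCs.

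Other lists differed more in mESCs than in EBs. Targets of p53 were higher in Apex1-labelled than in Neil mESCs for 14 of 27 genes (12 when summed), with a median of 0.63 against 0.20 in EBs, and 8 had a lower difference in EBs by the interaction (1 when summed). Pmaip1 had a log2 fold change of 1.39 ± 0.11 in mESCs. The nuclear respiratory chain list was lower for 16 of 30 genes in Apex1-labelled mESCs (11 when summed), with a median of −0.51, and had a median of −0.02 in EBs, with the interaction called for 10, all lost when summed. For the HIF1 and glycolysis list 15 of 30 were lower and 1 higher in mESCs (8 and 1 when summed), and 3 were lower and 2 higher in EBs (2 higher when summed, and 1 lower and 2 higher without Neil2 clone #1).

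**Figure D4:**
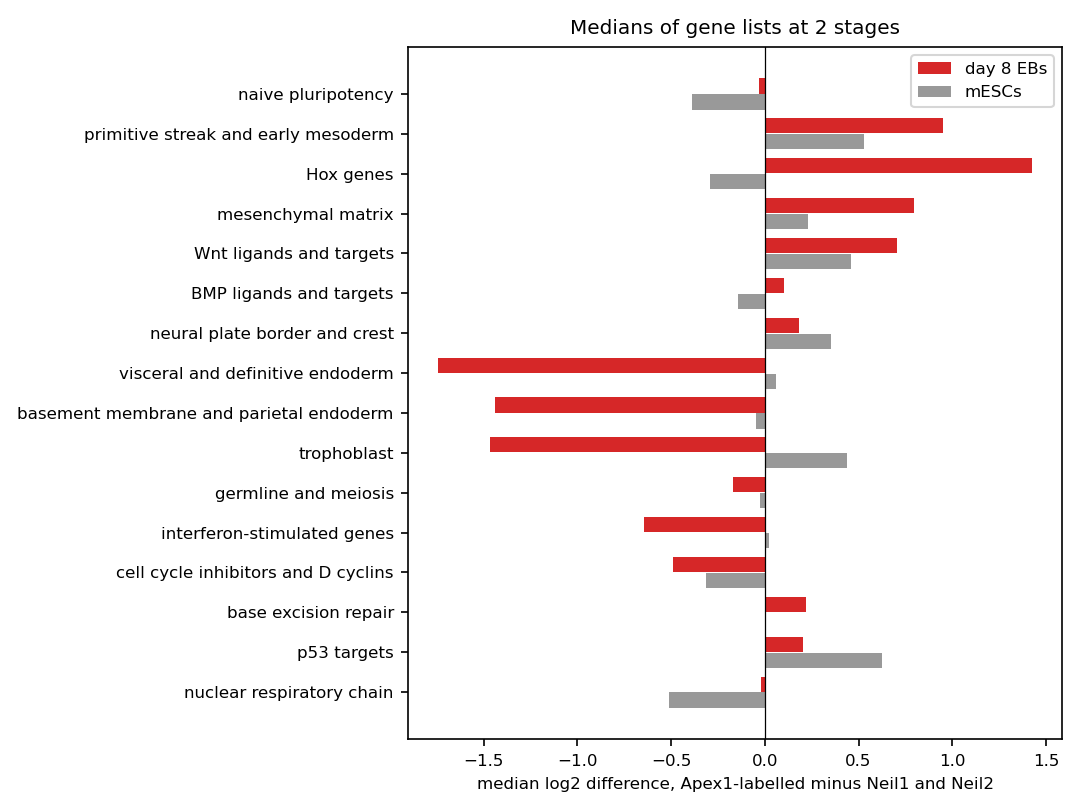
Median log2 fold change of Apex1-labelled over Neil libraries for 16 gene lists, in EBs (red bars) and in mESCs (grey bars). The endoderm and basement membrane lists have medians of −1.74 and −1.44 in EBs and near 0 in mESCs, and the respiratory chain list the opposite.

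The genes on chromosome 12 moved together in the Apex1-labelled libraries. The median log2 difference from the controls over 383 genes of that chromosome was 0.274 and 0.312 in the Apex1-labelled EBs and −0.0568 to 0.0504 in the other EB libraries, and it was 0.177 and 0.156 in the Apex1-labelled mESCs. In windows of 10 Mb with enough genes to be summarised, it was 0.371 to 0.548 in the 4 windows from 70 Mb onward and −0.0924 to 0.178 in the 4 windows before 60 Mb. Of 554 genes tested on chromosome 12, 151 were higher in Apex1-labelled than in Neil EBs (27.3%) and 28 lower (5.05%), against 1299 (8.59%) and 1483 (9.81%) of 15123 on the other autosomes. A window of chromosome 13, from base 50000001 to 60000000 with 56 genes, went the other way. It was at −0.454 and −0.387 in the Apex1-labelled EBs and at −0.13 to 0.0287 in the other EB libraries. Of 597 genes tested on chromosome 13, 58 were higher in Apex1-labelled than in Neil EBs (9.72%) and 87 lower (14.6%). As the line is 1 clone, these shifts and the genotype cannot be told apart. A Neil clone had a shift similar in size to that of chromosome 12, but on chromosome 9. In Neil1 clone #11 the median over 590 genes of chromosome 9 was −0.274 in EBs, and over 613 genes it was −0.3 in mESCs. It was −0.00933 to 0.0468 in the other EB libraries. Of 915 genes tested on chromosome 9, 104 were higher in Apex1-labelled than in Neil EBs (11.4%) and 65 lower (7.1%). Without the EB library of this clone 3076 genes were called in all, and the part of chromosome 9 in the results was not tested. Of 28 imprinted genes 5 were higher and 6 lower (3 and 1 when summed), against 9.25% and 9.64% of all genes, and without chromosome 12 the counts were 1 and 6. Rtl1, a paternally expressed gene there, was higher by 1.90 on the log2 scale. The remaining imprinted gene that was higher, Phlda2 on chromosome 7, a maternally expressed growth regulator, was at 48.5 to 96.6 CPM in the controls, 6.33 to 23.2 CPM in the Neil EBs and 48 and 42.8 CPM in the Apex1-labelled EBs. Leaving out chromosome 12 left 12 of the streak, 18 of the Hox and 10 of the matrix genes higher, and 15 of the endoderm and 11 of the basement membrane genes lower. Greb1, which was among the 10 genes that rose most and lies on chromosome 12, was at 13.2 and 15.6 CPM in the Apex1-labelled EBs and 2.52 to 4.41 CPM in the Neil EBs, a log2 fold change of 2.10 ± 0.25.

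**Figure D5:**
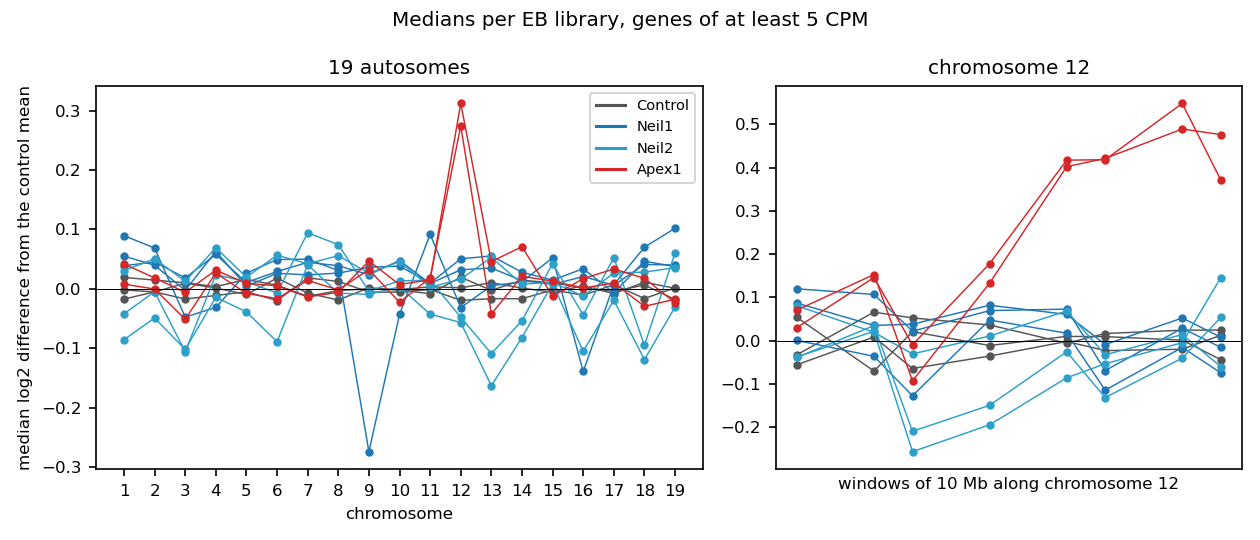
Median log2 difference from the control mean of each EB library, per autosome (left) and in 10 Mb windows along chromosome 12 (right), over genes whose mean in EBs was 5 CPM or more. The Apex1-labelled pair is raised on chromosome 12, by 0.274 and 0.312, and from 70 Mb onward within it, and Neil1 clone #11 lies lowest on chromosome 9, at −0.274.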

How the data were processed

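TruSeq v2 libraries of total RNA were sequenced by the authors on a HiSeq 2000 (51 cycles), and reads were aligned to NCBIM37 with TopHat2 version 2.0.9 and Bowtie2 version 2.1.0 and assigned to genes with HTSeq version 0.5.4. The deposited values are raw counts for 37991 Ensembl identifiers, of which 37205 were found in the NCBIM37 annotation. Here genes were filtered with filterByExpr, scaled by TMM and compared with edgeR version 4.0.16 (R version 4.3.3) by its quasi-likelihood test (robust), with p-values adjusted by Benjamini-Hochberg over all genes tested, in 1 fit of 11 EB libraries with 3 groups (Neil1 and Neil2 pooled). Equivalent fits were made for mESCs and, with 22 libraries, for the interaction. A call required an adjusted p (FDR) below 0.1 together with a log2 change of more than 0.5 in size, as in the study, and calls are counted over autosomes. Errors are standard errors of log2 fold changes. Depth of 21758303 to 48350904 counts makes values below 1 CPM imprecise. The comparison, the 30 gene lists and the tests were chosen with earlier results of these data known. Named genes were the targeted and germ layer genes of the study, the 10 highest and 10 lowest calls whose mean log2 CPM was 2 or more, that were also called with the duplicates summed and in which the groups did not overlap, and up to 4 members per list and direction. Alternatives were summed Apex1 duplicates, DESeq2 version 1.42.0, RLE size factors, no low-count filter, autosomal genes alone, an FDR below 0.05, only the groups compared, either Neil genotype alone, each library left out (for the interaction, EB libraries only), and a replicate block. The fits without chromosome 12, with a clone block, and the list counts without Neil2 clone #1 were chosen after seeing the data. The main fit of Apex1-labelled against Neil EBs was tested on simulated counts, and the other steps were not. The simulated Apex1-labelled pair was drawn as independent libraries, so it does not show how technical duplicates behave. RA-treated EBs were not analysed here. Guides were placed by exact match with Python version 3.11.15.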

Additional observations from a re-analysis of the deposited data

Results flagged for a closer look

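Single libraries that stood far from the rest of their group, by Dixon's criterion, were looked for in 27 genes, where chance gives about 1 in 20 groups. Among the 6 Neil EB libraries, Neil2 clone #1 was the outlying library for Apex1 at 4.84 CPM, Pou5f1 at 380 CPM, Pmp22 at 4.87 CPM and Smc1b at 57.7 CPM, and Neil1 clone #11 for Pax6 at 7.28 CPM.

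The difference between Apex1-labelled and Neil libraries was not the same in EBs as in mESCs for 2839 autosomal genes by the interaction test of edgeR, and for 197 with the duplicates summed. Among the genes named, the log2 fold change was higher in EBs by 0.65 for Pou5f1, 3.10 for Mixl1, 1.66 for Alox15, 1.34 for Pmp22, 1.33 for Cdk6 and 0.74 for Pnma2. It was lower in EBs for Gata6 (−1.62), Muc13 (−3.05), Anxa1 (−2.20), Apoa1 (−2.86), Tuba3a (−1.08), Hs3st1 (−3.42) and Gadd45g (−2.71). Of these 13 genes, Mixl1, Hs3st1, Gadd45g and Muc13 also passed with the duplicates summed (adjusted p = 0.032, 0.064, 0.061 and 0.087).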

How the results depend on the processing

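Every count of genes that includes the Apex1-labelled libraries depends on whether these technical duplicates of 1 clone count as 2 samples. With the duplicates summed, 1293 genes were called between Apex1-labelled and Neil EBs, 1314 between Apex1-labelled EBs and controls, 2578 between the mutants in mESCs and 197 by the interaction, which called 1846 at an FDR below 0.05. Leaving out 1 library at a time gave 953 to 3751 genes between Apex1-labelled and Neil EBs, with 1562 without replicate 1 and 953 without replicate 2 of the Apex1-labelled EBs and 3751 without Neil2 clone #1. It gave 1239 to 3741 for Apex1-labelled EBs against controls, 2510 to 3873 for Neil EBs against controls, 2128 to 5295 for the mutants in mESCs and 1107 to 3749 for the interaction, the lowest of each but the Neil count without an Apex1-labelled library, where the lone one is assumed to vary like the other groups. Of 148 named genes called, 58 lost the call with the duplicates summed, 52 and 68 without either Apex1-labelled library, 5 to 17 without any other, 2 with DESeq2 and 1 with RLE size factors. For the interaction only EB libraries were left out, so its dependence on single mESC libraries was not tested. The direction reversed for uncalled genes, Pax3 (−0.17 to 0.69 with 1 library left out, the lowest without replicate 1 of the Apex1-labelled EBs) and Pou5f1 (−0.044 with Neil1 clones only, −0.067 to 0.17 with 1 library left out, below 0 without replicate 2 of the Apex1-labelled EBs and without Neil2 clone #1). Replicate numbers do not pair the samples, since deviations from the group means correlated at −0.3 to 0.08 within a number and −0.17 to 0.32 between numbers. With the number as a replicate block, 1280 genes were higher and 1257 lower between the mutants in EBs, and 22 named calls were lost. At these depths, genes below 1 CPM rest on few counts.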
